A study of Mus musculus with 10 samples.

Results

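The corticosteroid and corticotropin-releasing hormone (CRH) genes are 10 genes of stress hormone signalling, chosen by symbol from the 54838 genes counted in every library: the receptors Nr3c1 and Nr3c2, the receptor partner and target Fkbp5, the targets Sgk1 and Tsc22d3, the enzyme Hsd11b1, the ligand Crh, its receptors Crhr1 and Crhr2, and its binding protein Crhbp. Of these, 9 passed the expression filter with 16806 genes in all, and Crhr2 did not. The values are ribosome-bound RNA levels from translating ribosome affinity purification (TRAP), in which ribosomes tagged with EGFP-L10a are precipitated from 1 class of cells. All 10 libraries came from male C57BL/6 mice of about 10 weeks with the genotype Drd2-Cre;Eef1a1LSL.eGFPL10a/+, so that every sample carried both the Cre driver and 1 copy of the tagged ribosome allele. The 2 groups were the shorter dorsal segment (5 libraries) and the longer ventral segment (5 libraries) of the hippocampus, and each library was a pool of 5 mice. The hippocampi were divided after dissection, so that both groups draw on the same mice, but the labels do not say which dorsal and ventral pools share them.

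The labels name no treatment, and no unprecipitated input library was analysed here. The Drd2 promoter drives Cre in most hilar mossy cells, the excitatory neurons of the dentate hilus. It is also active in some interneurons and other hippocampal neurons, so the libraries are not pure. The paper describes the captured population as enriched for mossy cells, and enrichment over input was not measured here. The interneuron gene Gad2 ranked 16 by mean CPM among the 16806 tested genes. In pooled tissue of this kind, fewer cells of a type and less RNA per cell cannot be told apart. Replicates were pools, and the p-values below measure the spread between pools.

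Glucocorticoids reach the brain from the adrenal gland and bind 2 nuclear receptors, the mineralocorticoid receptor (Nr3c2), which has the higher affinity and is dense in the hippocampus, and the glucocorticoid receptor (Nr3c1), which is occupied when the hormone is high. The bound receptors enter the nucleus and raise the transcription of genes such as Fkbp5, Sgk1 and Tsc22d3. CRH is best known as the hypothalamic peptide that starts the hormonal stress response, but it is also made by local hippocampal neurons, where it acts through CRHR1, a receptor coupled to cAMP, and is sequestered by the CRH-binding protein.

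Levels are given as CPM, counts scaled to the size of each library after TMM. Enrichment was called where edgeR's quasi-likelihood test gave an adjusted p below 0.05 and the log2 ratio of mean CPM plus 1 lay beyond 0.58. By this rule 2636 of the 16806 tested genes (15.7%) were enriched in the dorsal libraries and 1655 (9.85%) in the ventral libraries, and the libraries of the 2 groups did not overlap for 3054 genes (18.2%). Among the 9 tested members 2, Nr3c2 and Crh, were called dorsal-enriched, 0 were called ventral-enriched in edgeR (1, Crhbp, at an unadjusted p below 0.05, and 0 in DESeq2), and the groups did not overlap for 1, Nr3c2. With so few members these counts lie near the share of all genes and say nothing particular about the set. The median log2 fold change of the 9 was 0.081, beside -0.0044 for all genes tested, with 5 members higher in dorsal and 4 higher in ventral libraries.

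Dorsal libraries held 11138676 to 16779821 counts on genes and ventral libraries 11618625 to 20594364, where 3 counts correspond to between 0.141 and 0.282 CPM. Intervals and limits of this kind cover counting error only. The summed CPM of genes of the mitochondrial chromosome was 18013 to 21045 in dorsal and 3370 to 7717 in ventral libraries (exact permutation test, two-sided p = 0.00794). The share of read pairs on no gene was also higher in every dorsal library (21.8 to 33.9%) than in any ventral one (11.6 to 19.3%; exact permutation test, two-sided p = 0.00794). Where this share enters a fit as a covariate below, its part and that of the segment cannot be fully told apart. The summed CPM of 8 mossy cell markers ran from 1667 to 1886 in dorsal and from 1764 to 2049 in ventral libraries. Single markers differed in both directions within it, with Gria2 (1141 and 649.4 CPM) and Cyp26b1 called dorsal-enriched and Calb2 (65.04 and 615.1 CPM) and Satb1 called ventral-enriched. Markers of other cells were also present. The sum of 7 oligodendrocyte markers was 712.8 to 863 CPM in the dorsal and 352.3 to 700.6 CPM in the ventral group, that of 8 astrocyte markers 1961 to 2233 and 862.7 to 1450 CPM, and that of 12 interneuron markers 3618 to 4645 and 4498 to 5702 CPM. These sums rest on few abundant genes: 3 of the 7 oligodendrocyte markers passed in the dorsal direction, while of the 8 astrocyte markers 4, led by Slc1a2 (1771 and 868.2 CPM), were called dorsal-enriched and 1, Aldh1l1, ventral-enriched, with Aldoc and Sox9 also higher in ventral libraries. The sums of 8 microglial markers (28 to 43.45 and 20.56 to 43.65 CPM) and 8 vascular markers (97.47 to 159.7 and 106.9 to 152 CPM) overlapped between the groups, with the vascular marker Cldn5 at 0 in at least 1 library. The mossy cell marker Csf2rb2 was likewise at 0 in at least 1 library. The part of these cells in the differences below was not tested.

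**Figure D1:**
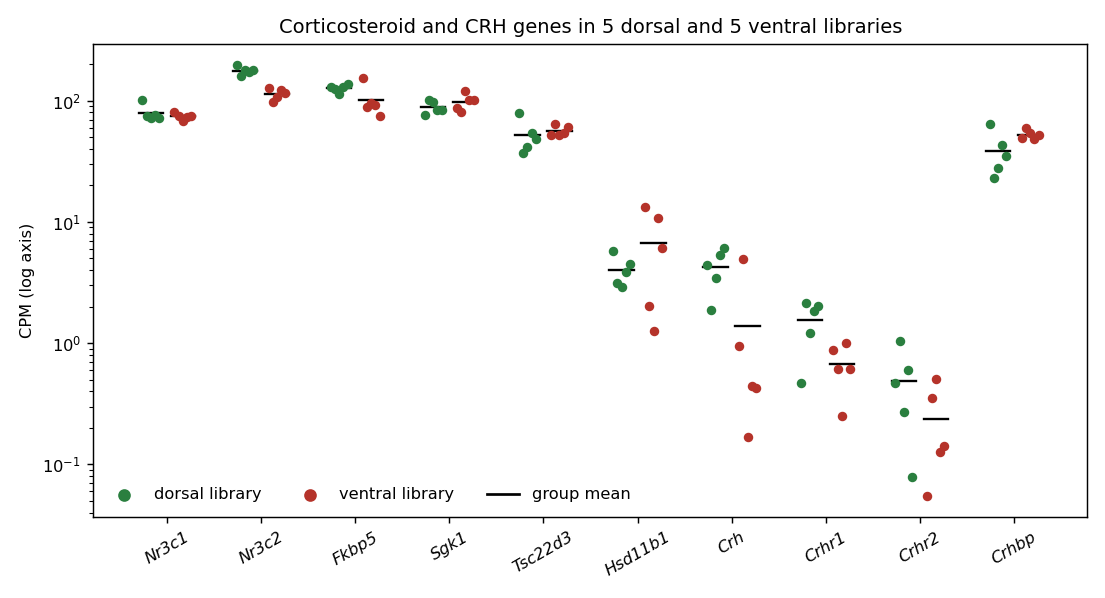
Level of each of the 10 genes in every library, in CPM on a log axis, with green points for the 5 dorsal and red points for the 5 ventral libraries and a black line at each group mean. Nr3c2 is the one gene whose dorsal libraries (159.4 to 195.3) all lie above its ventral libraries (97.98 to 128.4), and in Crh 4 of the 5 ventral libraries lie below 1 CPM.

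The mineralocorticoid receptor was the member with the clearest difference. Nr3c2 (ENSMUSG00000031618, GRCm38 chr8:76899442-77245012, plus strand) stood at 195.3, 159.4, 180.5, 172 and 180.1 CPM in dorsal libraries 1 to 5 and at 128.4, 97.98, 106.8, 121.6 and 115.4 CPM in ventral libraries 1 to 5. The lowest dorsal library lay above the highest ventral one. The means were 177.5 ± 13.15 and 114 ± 11.98 CPM (SD, n = 5 each), a 1.55-fold higher dorsal level (log2 fold change 0.63, SE 0.10, edgeR adjusted p = 0.000635). Leaving out any 1 library kept the call, with log2 fold changes from 0.58 to 0.68. A correction of each library for GC content and exonic length left the gene higher in dorsal libraries but ended the call (log2 fold change 0.49, adjusted p = 0.167). Nr3c2 is also made by dentate granule cells and CA pyramidal cells. The sum of 6 granule cell markers was 301 to 363.8 CPM in dorsal and 125.7 to 284.8 CPM in ventral libraries, and that of 8 pyramidal cell markers 527 to 592.9 and 465.4 to 522.5 CPM, both without overlap. Not all of these markers were higher in dorsal libraries: among granule cell markers Prox1 and Lct were called dorsal-enriched while Dsp and Plk5 were higher in ventral libraries, and among pyramidal cell markers Bok and Nptx1 were called dorsal-enriched, Mpped1 was called ventral-enriched and Wfs1 was higher in ventral libraries. Their part in the difference was not tested. An antisense gene, Gm10649, shares 3.82% of the exonic length of Nr3c2 and had 43 to 170 counts per library, against 1115 to 2869 for Nr3c2, and without strand in the counting the reads of the shared part cannot be told apart.

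A promoter window of Nr3c2 is shown because this is the member that differed most clearly between the segments. The RefSeq transcription start that it precedes lies inside the gene span given above. Printed is the exon-free part of the window (GRCm38.p6, chr8:76902080-76902287, plus strand), 5′ to 3′, with both CCAAT motifs in capitals.
Nr3c2: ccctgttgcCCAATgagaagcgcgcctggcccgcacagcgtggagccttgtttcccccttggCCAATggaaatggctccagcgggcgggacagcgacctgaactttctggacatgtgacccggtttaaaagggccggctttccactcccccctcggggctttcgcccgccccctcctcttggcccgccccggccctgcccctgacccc
The motif CCAAT, searched on both strands, was found in 33.8% of the 32851 RefSeq windows of this kind, so its presence is common. The half-site AGAACA to which corticosteroid receptors bind was not in this window and was in 16.1% of all windows.

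The glucocorticoid receptor did not follow the mineralocorticoid receptor. Nr3c1 (ENSMUSG00000024431, GRCm38 chr18:39410545-39519421, minus strand) stood at 101.7, 74.38, 72.1, 76.01 and 71.84 CPM in dorsal libraries 1 to 5 and at 81.3, 74.87, 67.84, 73.63 and 74.36 CPM in the ventral ones. The groups overlapped, and dorsal library 1 stood above all others. The means were 79.2 ± 12.7 and 74.4 ± 4.78 CPM (log2 fold change 0.081, SE 0.12, edgeR adjusted p = 0.63), and the sign of the estimate turned without dorsal library 1 (-0.015) and with the GC and length correction (-0.14).

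Since both receptors bind the same hormone, their ratio within a library was compared, which does not depend on how libraries are scaled. Per kilobase of exonic length, the ratio of Nr3c1 to Nr3c2 counts was 0.439, 0.393, 0.337, 0.372 and 0.336 in dorsal libraries 1 to 5 and 0.534, 0.644, 0.535, 0.51 and 0.543 in the ventral ones. The mineralocorticoid receptor RNA was thus the more abundant per kilobase in all 10 libraries, and every ventral ratio was higher than every dorsal one. The mean log2 ratio was -1.42 ± 0.16 in dorsal and -0.86 ± 0.13 in ventral libraries, a difference of -0.56 (two-sided exact permutation p = 0.00794, the lowest possible with 5 against 5; 0.0238 after Benjamini-Hochberg adjustment over 3 ratios). This ratio holds the same Nr3c2 counts as the comparison above and is not a separate observation of them.

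**Figure D2:**
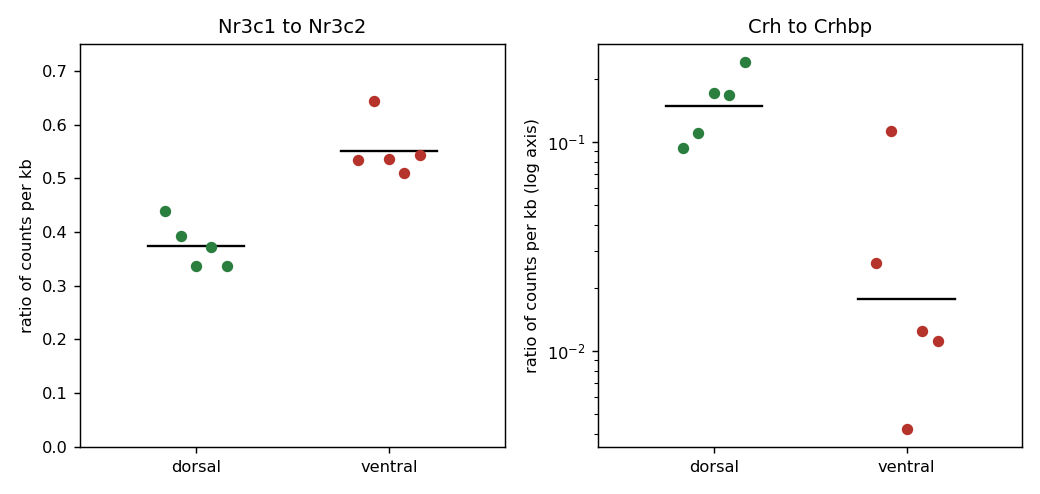
Ratio of counts per kilobase within each library, for Nr3c1 to Nr3c2 on a linear axis (left) and Crh to Crhbp on a log axis (right), with green points for 5 dorsal and red points for 5 ventral libraries and a line at the geometric mean. The Nr3c1 to Nr3c2 ratio runs from 0.336 to 0.439 in dorsal and from 0.51 to 0.644 in ventral libraries without overlap, and the Crh to Crhbp ratio overlaps through ventral library 2 (0.113).

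The 3 receptor target genes did not pass the test. Fkbp5 (GRCm38 chr17:28399094-28517527, minus strand) encodes a cochaperone that lowers the hormone affinity of the glucocorticoid receptor and is itself induced by it. It stood at 130, 126.1, 114.5, 130.1 and 138.4 CPM in dorsal libraries 1 to 5 and at 154.2, 88.84, 95.65, 92.44 and 74.59 CPM in the ventral ones. Of the ventral libraries, 4 lay below every dorsal library and ventral library 1 lay above them all. The means were 127.8 ± 8.68 and 101.1 ± 30.7 CPM (log2 fold change 0.33, SE 0.16, edgeR adjusted p = 0.131). Without ventral library 1 the log2 fold change was 0.54 with an adjusted p of 0.00408, still short of the fold threshold.

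Sgk1 (GRCm38 chr10:21882184-21999903, plus strand) encodes a kinase that regulates ion channels and transporters. Its level was 76.72, 100.5, 97, 84.34 and 84.31 CPM in dorsal libraries 1 to 5 and 87.06, 81.37, 120.6, 101.6 and 101.5 CPM in the ventral ones. The groups overlapped (88.57 ± 9.88 and 98.42 ± 15.3 CPM, log2 fold change -0.15, SE 0.13, edgeR adjusted p = 0.383). Sgk1 is also made by oligodendrocytes, whose marker sum was higher in every dorsal library, as given above.

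An Sgk1 window is printed because it holds the full palindromic glucocorticoid response element, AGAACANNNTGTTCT, which was found in 3 of the 32851 RefSeq windows (0.00913%). The RefSeq transcription start that it precedes lies inside the gene span given above. The window lies at GRCm38.p6 chr10:21993640-21993889 on the plus strand, with the palindrome in capitals, 189 bases from its first letter to that start.
Sgk1: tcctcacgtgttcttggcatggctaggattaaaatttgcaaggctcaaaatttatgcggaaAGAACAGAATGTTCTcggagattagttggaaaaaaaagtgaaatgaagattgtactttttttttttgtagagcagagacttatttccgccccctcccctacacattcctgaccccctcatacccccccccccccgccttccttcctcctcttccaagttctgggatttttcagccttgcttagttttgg
Windows were given for 8 of the 10 members, 15 windows in all, and this was the 1 member window with the palindrome. The half-site AGAACA, which the palindrome contains on both strands, was in 4 of the 15 windows, those of Sgk1 and Tsc22d3. The cAMP response half-site TGACG was in 3 of the 15 (Sgk1, Tsc22d3 and Crhbp), beside 17.8% of all windows. A match is a stretch of letters and was not tested for binding.

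Tsc22d3 (GRCm38 chrX:140539528-140600659, minus strand) encodes GILZ, a glucocorticoid-induced leucine zipper protein. It stood at 79.72, 37.09, 41.43, 54.61 and 48.23 CPM in dorsal libraries 1 to 5 and at 52.22, 64.32, 52.42, 54.24 and 60.69 CPM in the ventral ones. Dorsal library 1 was the highest of all 10 and dorsal library 2 the lowest, so that the dorsal spread enclosed the ventral one (52.22 ± 16.8 and 56.78 ± 5.44 CPM, log2 fold change -0.14, SE 0.18, edgeR adjusted p = 0.584).

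Hsd11b1 (GRCm38 chr1:193221634-193264075, minus strand) encodes the enzyme that regenerates active corticosterone inside cells. It was low, at 5.728, 3.112, 2.925, 3.836 and 4.47 CPM in dorsal libraries 1 to 5 and at 13.4, 2.021, 1.264, 10.73 and 6.079 CPM in the ventral ones. The ventral libraries held both the highest and the lowest values. The means were 4.014 ± 1.14 and 6.7 ± 5.32 CPM (log2 fold change -0.89, SE 0.49, edgeR adjusted p = 0.169). The enzyme with the opposite action, Hsd11b2, had 0 counts in all 10 libraries, which allows up to 0.282 CPM in the shallowest of them.

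The ligand Crh (ENSMUSG00000049796, GRCm38 chr3:19693401-19695396, minus strand) was the second member called dorsal-enriched, at low counts. It had 47, 29, 51, 89 and 78 counts in dorsal libraries 1 to 5 and 17, 56, 2, 7 and 9 counts in the ventral ones. As CPM these are 4.414, 1.88, 3.469, 5.335 and 6.117 in dorsal and 0.9415, 4.921, 0.1685, 0.442 and 0.4241 in ventral libraries. Ventral library 2 lay within the dorsal range, and the other 4 ventral libraries lay below every dorsal one. Of the ventral libraries, library 2 alone lay above 1 CPM, so Crh passed the expression filter only through the dorsal libraries. The means were 4.243 ± 1.65 and 1.379 ± 1.999 CPM, a 3.56-fold higher dorsal level in the fit (log2 fold change 1.83, SE 0.60, edgeR adjusted p = 0.0304).

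The Crh call depended on the libraries and the test. Without ventral library 2 the log2 fold change was 2.99 (adjusted p = 0.00088). The call was lost without dorsal library 4 (1.71, adjusted p = 0.0769), dorsal library 5 (1.69, 0.0742), ventral library 1 (1.75, 0.0587), ventral library 3 (1.62, 0.0528), ventral library 4 (1.63, 0.0716) or ventral library 5 (1.54, 0.0861). It was also lost with DESeq2 (1.67, adjusted p = 0.0654) and in the likelihood-ratio test of edgeR (1.63, adjusted p = 0.0771), when replicate numbers entered as a block (1.85, adjusted p = 0.0617) and with the share of read pairs on no gene as a covariate (2.68, adjusted p = 0.146), and in 12 of 27 alternatives in all. In every one of the 27 alternatives Crh remained higher in dorsal libraries. CRH peptide in the hippocampus is known from interneurons, and the sum of 12 interneuron markers was 3618 to 4645 CPM in the dorsal and 4498 to 5702 CPM in the ventral group, with all 12 genes higher in ventral libraries and 5 of them called. This sum was 5451 CPM in ventral library 2, where Crh was high, and 5702 CPM in ventral library 1, where it was not. Dorsal libraries 2 and 3 had the lowest sums (3640 and 3618 CPM) and also the lowest Crh values of their group. The largest term of the sum was Gad2, with a mean of 2848 CPM for the dorsal group and 3168 CPM for the ventral group. The part of interneurons in the Crh values was not tested.

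The principal receptor of the peptide, Crhr1 (GRCm38 chr11:104132855-104175523, plus strand), was near the detection limit. It stood at 0.4695, 2.14, 1.224, 1.858 and 2.039 CPM in dorsal libraries 1 to 5 and at 0.8861, 0.6151, 0.2528, 1.01 and 0.6126 CPM in the ventral ones. Of the dorsal libraries, 4 lay above every ventral library and dorsal library 1 lay among the lowest. Of the ventral libraries, library 4 alone lay above 1 CPM, so Crhr1 passed the expression filter only through the dorsal libraries. The means were 1.546 ± 0.699 and 0.6754 ± 0.293 CPM, and the difference did not pass (log2 fold change 1.19, SE 0.46, edgeR adjusted p = 0.0568). It passed without dorsal library 1 (1.36, adjusted p = 0.0235) and with a filter that asked for CPM above 1 in 5 libraries (1.21, adjusted p = 0.0422).

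The second receptor, Crhr2 (GRCm38 chr6:55090049-55133016, minus strand), which prefers urocortins, did not pass the filter. It had 5, 16, 4, 10 and 1 counts in dorsal libraries 1 to 5 and 1, 4, 6, 2 and 3 counts in the ventral ones, with means of 0.4914 ± 0.364 and 0.236 ± 0.187 CPM. No difference was detectable at this depth (exact permutation test, two-sided p = 0.206). The ratio of Crhr1 to Crhr2 per kilobase ran from 2.08 to 54.1 in dorsal and from 1.04 to 33.3 in ventral libraries (difference of mean log2 ratios 0.12, exact permutation test, two-sided p = 0.944), and its sign turned when ventral library 2 (-0.12), ventral library 3 (-0.57) or dorsal library 5 (-0.57) was left out. The other ligands of these receptors had almost no reads, with Ucn at 0 counts in all 10 libraries and Ucn2 and Ucn3 at 0 or 1.

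Crhbp (GRCm38 chr13:95431371-95444924, minus strand), the binding protein that takes CRH out of reach of its receptors, was far more abundant than its ligand. It stood at 64.32, 23.21, 27.62, 43.4 and 34.74 CPM in dorsal libraries 1 to 5 and at 48.96, 59.32, 54.02, 48.75 and 52.07 CPM in the ventral ones. Dorsal library 1 was the highest of all and the other 4 dorsal libraries lay below every ventral one. The means were 38.66 ± 16.3 and 52.62 ± 4.35 CPM (log2 fold change -0.46, SE 0.22, edgeR adjusted p = 0.11), and without dorsal library 1 the gene was called ventral-enriched (-0.69, adjusted p = 0.00739). Crhbp is also made by interneurons. Their marker sum was 4645, 3640, 3618, 4359 and 4168 CPM in dorsal libraries 1 to 5 and 5702, 5451, 4613, 4498 and 4779 CPM in the ventral ones. The part of interneurons in the Crhbp values was not tested.

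Ligand and binding protein were set against each other within each library. The ratio of Crh to Crhbp per kilobase was 0.0936, 0.11, 0.171, 0.168 and 0.24 in dorsal libraries 1 to 5 and 0.0262, 0.113, 0.00425, 0.0124 and 0.0111 in the ventral ones. Binding protein RNA exceeded ligand RNA in all 10 libraries. The mean log2 ratio was -2.76 ± 0.54 in dorsal and -5.82 ± 1.76 in ventral libraries, a difference of 3.07 (exact permutation test, two-sided p = 0.0238, adjusted over 3 ratios 0.0357). This ratio holds the same low Crh counts as the comparison above, 2 to 56 in ventral libraries. It is not a separate observation of them and lends the Crh call no further weight.

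**Figure D3:**
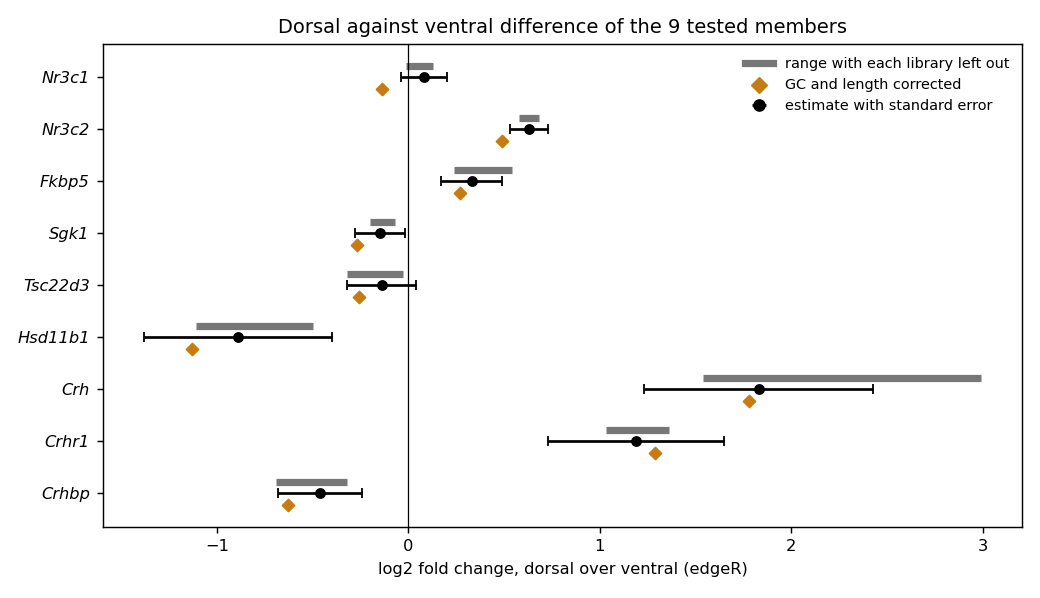
Log2 fold change of dorsal over ventral libraries for the 9 tested genes, with the edgeR estimate and its standard error as a black point and bar, the range of estimates with each of the 10 libraries left out as a grey bar, and the estimate corrected for GC content and exonic length as an orange diamond. Nr3c2 has a narrow grey bar (0.58 to 0.68), Crh a wide one (1.54 to 2.99), and the grey bar of Nr3c1 crosses 0 (-0.015 to 0.13).

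Levels were set side by side between genes per kilobase of exonic length. That length is of all annotated exons of a gene together and not of the transcripts present, so the order is approximate. In dorsal libraries Nr3c2 came first at 27.4 ± 2.03 CPM per kilobase, followed by Crhbp (21.5 ± 9.03), Sgk1 (18.1 ± 2.01), Fkbp5 (13.5 ± 0.916), Tsc22d3 (12.03 ± 3.86) and Nr3c1 (10.3 ± 1.65). Crh (3.21 ± 1.25), Hsd11b1 (0.944 ± 0.268), Crhr1 (0.629 ± 0.284) and Crhr2 (0.0961 ± 0.0711) were far lower. The ranges of mean ± SD overlapped for the neighbours Nr3c2 and Crhbp, Crhbp and Sgk1, Fkbp5 and Tsc22d3, Tsc22d3 and Nr3c1, and Hsd11b1 and Crhr1. In ventral libraries the order began with Crhbp (29.2 ± 2.41 CPM per kilobase), then Sgk1 (20.1 ± 3.11), Nr3c2 (17.6 ± 1.85), Tsc22d3 (13.1 ± 1.25), Fkbp5 (10.7 ± 3.25) and Nr3c1 (9.68 ± 0.622). The low genes were Hsd11b1 (1.58 ± 1.25), Crh (1.05 ± 1.52), Crhr1 (0.275 ± 0.119) and Crhr2 (0.0462 ± 0.0365). Here these ranges overlapped for Sgk1 and Nr3c2, Tsc22d3 and Fkbp5, Fkbp5 and Nr3c1, Hsd11b1 and Crh, and Crh and Crhr1.

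The genes whose levels moved most like a called member over the 10 libraries were found by the root mean square difference of centred log2(CPM + 1). For Nr3c2 they were Nfib (0.0615), Aff3 (0.0704) and Cdk19 (0.0753). For Crh they were Ism1 (0.195), Gm44681 (0.25) and C530050E15Rik (0.301), at larger distances. These libraries share their preparation and groups, so likeness is a description only.

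Around the members, 92 other genes of the same pathways were listed in 6 groups, of which 79 passed the filter and 12 were called, 7 in the dorsal and 5 in the ventral direction. Over these 79 genes, 39 were higher in dorsal and 40 in ventral libraries. Of all genes tested, 15.7% were called dorsal-enriched and 9.85% ventral-enriched. With lists this small, the counts called in each of them below say nothing particular about a pathway.

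Steroid receptors are held ready for hormone by HSP90 and its cochaperones. Of 14 chaperone genes, 14 were tested, all 14 were higher in ventral libraries, 7 had an adjusted p below 0.05, as had 33.6% of all genes tested, and 1 passed the fold threshold as well. That count of 1 was 3 with the GC and length correction or without dorsal library 1, 4 without ventral library 3, 2 without ventral library 5, and 0 with the covariate below or with the block and GC correction together. The median log2 fold change was -0.44, beside -0.0044 for all genes. The called gene was Dnajb1, an HSP40 cochaperone, at 138.1 ± 24.39 CPM in the dorsal and 222.8 ± 43.76 CPM in the ventral group without overlap (log2 fold change -0.69, SE 0.15, edgeR adjusted p = 0.00328). With the share of read pairs on no gene as a covariate the list's median was -0.033. There 7 of the 14 were higher in ventral libraries, so the direction of the list was not kept. This share did not overlap between the segments, so that fit cannot fully separate it from the segment.

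Receptor coactivators and corepressors did not differ past the threshold, with 0 of 14 called in the edgeR fit and 0 in DESeq2, 4 at an unadjusted and 3 at an adjusted p below 0.05 and a median log2 fold change of 0.12. Of 12 genes that make, convert or move glucocorticoids, 6 were tested and 2 were called dorsal-enriched (median 0.39). Star, which brings cholesterol into mitochondria, stood at 18.73 ± 6.522 and 11.32 ± 3.06 CPM (log2 fold change 0.72, SE 0.27, adjusted p = 0.0486). Cyp11a1, which makes pregnenolone, had 1 to 30 counts in dorsal and 0 to 8 in ventral libraries (log2 fold change 2.30, adjusted p = 0.0476), and passed the expression filter only through dorsal libraries 3, 4 and 5. Both calls were fragile. Star lost its call in 14 of 27 alternatives, among them those without dorsal library 1, 3, 4 or 5 or ventral library 1, 2, 4 or 5 (adjusted p from 0.0641 to 0.113). Cyp11a1 lost it in 15 of 26, among them those without dorsal library 3, 4 or 5 or ventral library 1, 3, 4 or 5 (adjusted p from 0.071 to 0.14).

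Of 20 genes known to be induced by glucocorticoids, 18 were tested, of which 2 were dorsal-enriched and 1 ventral-enriched, around a median of 0.14 on the log2 scale. Klf9, a transcription factor induced through both receptors, stood at 176.9 ± 19.47 CPM in the dorsal and 112.1 ± 15.21 CPM in the ventral group without overlap (log2 fold change 0.65, SE 0.12, edgeR adjusted p = 0.0013), and lost the call with the GC and length correction (0.48, adjusted p = 0.177) and, through the fold threshold, without ventral library 2 (0.57). Plin4, a lipid droplet protein, was at 3.395 ± 1.372 and 1.46 ± 0.186 CPM (log2 fold change 1.25, SE 0.36, adjusted p = 0.017). With the share of read pairs on no gene as a covariate its call was lost (0.92, edgeR adjusted p = 0.455). Map3k6, a stress kinase, was the ventral gene at 1.028 ± 0.6201 and 4.227 ± 1.578 CPM (log2 fold change -2.01, SE 0.43, adjusted p = 0.00313).

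In the CRH family and the cAMP pathway, 22 genes were listed and 17 tested, of which 3 were dorsal-enriched and 2 ventral-enriched, around a median of 0.03 on the log2 scale. The dorsal genes were all adenylyl cyclases, which make cAMP, but other cyclases were not called. Among these, Adcy2, Adcy7, Adcy8 and Adcy9 were higher in dorsal libraries and Adcy3 in ventral ones (-0.63, edgeR adjusted p = 0.125). Adcy1 stood at 741.1 ± 71.39 CPM in the dorsal and 328.9 ± 44.62 CPM in the ventral group without overlap (log2 fold change 1.17, SE 0.11, edgeR adjusted p = 1.63e-05), and its call held in all 27 alternatives. Adcy5 stood at 42.37 ± 3.749 and 26.74 ± 3.471 CPM (0.65, SE 0.13, adjusted p = 0.00248), and without ventral library 2 it fell just short of the fold threshold. It also lost its call with the share of read pairs on no gene as a covariate (0.82, edgeR adjusted p = 0.0675). The same held with the block and GC correction together (0.84, edgeR adjusted p = 0.0692). Adcy6, with 8.92% of its exonic length shared with the antisense gene Gm29331, stood at 6.222 ± 0.9565 and 3.489 ± 0.7496 CPM (0.80, SE 0.25, adjusted p = 0.0249) and lost its call without dorsal library 4 (0.77, adjusted p = 0.0675), dorsal library 5 (0.82, 0.0522) or ventral library 5 (0.78, 0.0632), and in 8 of 27 alternatives in all, among them no filter (adjusted p = 0.0764), the GC and length correction (0.0656) and the covariate (0.223). The ventral genes, Prkacb and Crem, act after cAMP, as do genes that were not called, such as Prkaca (-0.42), Prkar2a (0.03) and Creb1 (0.12). Prkacb, a catalytic subunit of protein kinase A, stood at 415.9 ± 46.44 and 685.7 ± 69.98 CPM without overlap (-0.72, SE 0.10, adjusted p = 0.000253), and with the covariate its call was lost (-0.42, adjusted p = 0.183). Crem, a cAMP-responsive transcription factor that shares 8.01% of its exonic length with the antisense gene Gm6225, stood at 27.63 ± 3.533 and 42.38 ± 15.71 CPM (-0.59, SE 0.21, adjusted p = 0.0408). Its call was lost in 16 of 27 alternatives, among them those without dorsal library 1, 3, 4 or 5 or ventral library 3, 4 or 5 (adjusted p from 0.0595 to 0.0911), with a log2 fold change of -0.36 without ventral library 3.

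All 10 genes of the SGK pathway were tested and 1 of them was called, in the ventral direction, around a list median of 0.11 on the log2 scale. The called gene was Sgk2, a relative of Sgk1, with 2 to 22 counts in dorsal and 0 to 71 in ventral libraries (log2 fold change -2.36, SE 0.78, edgeR adjusted p = 0.0269). That call depended on each of dorsal libraries 1, 3, 4 and 5 and ventral libraries 3 and 5, since leaving out any 1 of them gave an adjusted p from 0.0574 to 0.0833. Of the dorsal libraries, library 2 alone lay above 1 CPM, so Sgk2 passed the expression filter only through the ventral libraries.

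**Figure D4:**
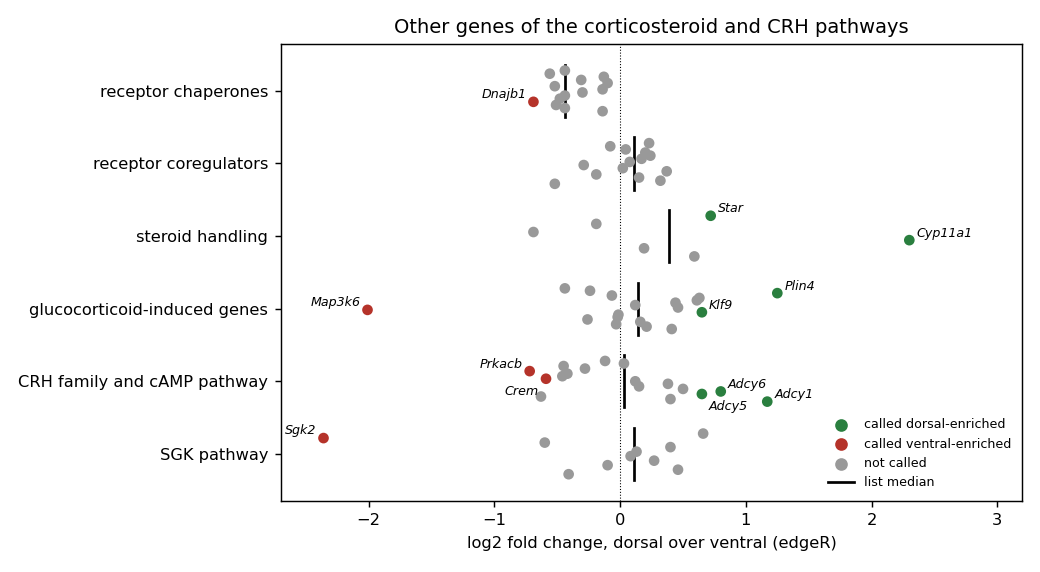
Log2 fold change of dorsal over ventral libraries for the 79 tested genes of 6 pathway lists, 1 row of points per list, with called genes in green (dorsal-enriched, 7 genes) or red (ventral-enriched, 5 genes) and named, other genes in grey, and a black line at each list's median. All 14 chaperone genes lie left of 0, and with the share of read pairs on no gene as a covariate 7 of them do.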

How the data were processed

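RNA bound to EGFP-tagged ribosomes was sequenced from 5 dorsal and 5 ventral pools. After amplification with the Ovation kit, the authors aligned reads to GRCm38 with STAR 2.5.2b and deposited HTSeq 0.7.2 counts per gene, neither normalized nor filtered. The labels name no batch. The annotation release and strand setting are not given in the sources used here. The 10 genes and all lists were chosen with earlier results of these data known.

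Counts were fitted in R 4.3.3 with edgeR 4.0.16: CPM above 1 in at least 2 libraries, TMM, quasi-likelihood test, Benjamini-Hochberg adjustment over 16806 genes, and calls at an adjusted p below 0.05 and a log2 ratio of mean CPM plus 1 beyond 0.58. Standard errors are the log2 fold change over the square root of F. GENCODE's GRCm38 annotation gave symbols, GC content and exonic length for 54809 of 54838 identifiers, and RefSeq the promoter windows. Every member is named, and from each list the called genes, at most 6 per direction. The alternatives were other scalings, filters, tests and thresholds, DESeq2 1.42.0, the replicate block, a GC and length correction with mgcv 1.9.3, the share of read pairs on no gene as a covariate, and each library left out. The fit was tested on simulated counts with far fewer changed genes than were called in the data. There it called more unchanged genes than the nominal rate. That rate need not carry over to these data, but calls close to the threshold may be less certain than their adjusted p. No 2 libraries were duplicates (within-group chi-square per degree of freedom 4.36 to 45.1). Of the listed oligodendrocyte markers, 1 is not reported here.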

Additional observations from a re-analysis of the deposited data

Results flagged for a closer look

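In 4 of the 26 groups of 5 libraries examined (10 genes and 3 ratios in each segment), 1 library stood far from the other 4 by Dixon's criterion, which chance alone meets in about 1 in 20 groups. Nr3c1 stood at 102 CPM in dorsal library 1, and the next dorsal library was at 76 CPM. Fkbp5 stood at 154 CPM in ventral library 1, and the next was at 95.7 CPM. Crh stood at 4.92 CPM in ventral library 2, and the next was at 0.941 CPM. The ratio of Nr3c1 to Nr3c2 per kilobase was 0.644 in ventral library 2, with the next at 0.543, and here the library lay farther from the dorsal group. The cause of these values was not tested.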

How the results depend on the processing

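Of the members, 2 were called dorsal-enriched and 0 ventral-enriched. With Crh losing its call, 1 remained dorsal-enriched under DESeq2, the likelihood-ratio test, the off-gene share as a covariate, an adjusted p below 0.01 and the dispersions of edgeR 3, an alternative chosen after seeing the data. With the GC and length correction Nr3c2 lost its call, leaving 1. Leaving out each library gave 1 to 3 dorsal-enriched and 0 to 1 ventral-enriched members. The 7 dorsal-enriched and 5 ventral-enriched list genes became 3 and 6 with the GC and length correction, 2 and 3 with the covariate, 11 and 16 with no fold threshold, 3 and 3 at an adjusted p below 0.01, and 4 to 8 and 3 to 6 with each library left out. Over all genes, 1570 and 1639 were called with the GC and length correction, which shifted the median log2 fold change of all genes to -0.13, and 834 and 339 with the covariate, beside 2636 and 1655. Without a filter the median was 0.11. The sign of Nr3c1 turned with the correction (-0.14), and leaving out each library gave -0.015 to 0.13. With the covariate the signs of Tsc22d3 (0.54), Hsd11b1 (0.70) and Crhbp (0.33) turned. As said above, this covariate and the segment cannot be fully told apart. The log2 ratio difference of Crhr1 to Crhr2 ran from -0.57 to 0.68 with each library left out, including -0.12. The causes were not tested.

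Both segments came from the same mice, but no label says which pools share them, and the check found no sign that equal replicate numbers pair the libraries: correlations of same-numbered pairs ran from -0.032 to 0.070, and 2 of 5 libraries correlated best with their own number. With the number as a block, 1 member, Nr3c2, was called dorsal-enriched. With the block and the GC and length correction, the counts were 1 dorsal-enriched member (Crh, with Nr3c2 at 0.51 and an edgeR adjusted p = 0.273) and 1 ventral-enriched member (Hsd11b1, log2 fold change -1.13, edgeR adjusted p = 0.0334), 2 and 3 list genes, and 1572 and 1328 of all genes, with Nr3c1 at -0.12. Under the replicate block, which leaves the size of a ratio difference as it is by construction, the values were -0.56 for Nr3c1 to Nr3c2 (exact permutation p = 0.0625, the smallest that 5 pairs allow) and 3.07 for Crh to Crhbp (exact permutation p = 0.125).

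Low counts limit Crh, Crhr1, Crhr2 and Hsd11b1. Nr3c2 kept its direction in 27 of 27 alternatives and its call in 25, losing it under the GC and length correction, with and without the block. Cyp11a1 had no estimate under the stricter filter.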
